A study of Mus musculus with 8 samples.

Results

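The myogenic regulatory factors Myf5, Myod1, Myog and Myf6 are a family of 4 genes, taken by symbol from the 27554 genes of the deposited count table. Their transcripts were followed through the 8 libraries of muscle stem cells that had been sorted from mouse hindlimb muscle by reporter fluorescence. All mice had the C57BL/6NTac background and carried a ZsGreen reporter in Pax7 and an E2Crimson reporter in Myf5, each joined through T2A, a self-cleaving peptide, per the labels. The fractions were ZsGreen-positive cells from the top (Myf5High) and the bottom (Myf5Low) of the E2Crimson range. Each fraction was taken from females and from males, which gives 4 groups of 2 libraries, and each library was made from a pool of 4 mice, untreated as far as the labels say. The labels give no age. They number the pools alike in both fractions, but no label says outright that the mice are the same. The tests below do not use this pairing, except where a pool block is named.

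The 4 factors are basic helix-loop-helix transcription factors. They pair with E proteins and bind E-box sequences (CANNTG) in muscle genes, and Id proteins block them by taking up the E proteins. Myf5 and MyoD (the product of Myod1) set cells on the muscle lineage. Myogenin (Myog) turns on terminal differentiation and fusion, and Myf6, also called MRF4, is best known from late differentiation and mature fibres. Resting muscle stem cells are known to transcribe Myf5 already, while Myog marks cells that have begun to differentiate.

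Reads assigned to genes numbered 3140361 to 4238427 per library, and reads assigned to no annotated feature made up 41.96% to 45.3% of the table's total. The rRNA-like transcript Gm42418 took 20.1% to 28.8% of the reads assigned to genes, most in male Myf5High replicate 2. All 11 markers of muscle stem cells passed the filter on low counts, with a summed level of 4140 to 5950 CPM (counts scaled to a common library size by TMM normalisation) in the 8 libraries. Markers of other cell types were present at lower levels. Their summed levels were 215 to 581 CPM for 8 endothelial genes, 345 to 755 CPM for 8 mural genes, 448 to 868 CPM for 8 fibro-adipogenic and tendon genes, 48.1 to 164 CPM for 8 glial genes and 15.1 to 92.7 CPM for 8 immune genes. Much of some sums came from single genes. In the fibro-adipogenic and tendon list, Gsn had means of 462 CPM (Myf5High) and 400 CPM (Myf5Low), but Pdgfra 2.66 and 0.774 CPM. In the mural list, Notch3 had 252 and 166 CPM, but Pdgfrb 3.29 and 4.17 CPM. Pdgfra, Notch3 and Pdgfrb are named after their values were seen. The sums are therefore no measure of the amount of other cells. The glial gene Gfra3 had 0 counts in every library. Of the sums of other cell types, only the immune one did not overlap between the fractions. It was 15.1 to 35.3 CPM in Myf5High and 45.3 to 92.7 CPM in Myf5Low. Single genes did not overlap in 4.58% of those tested. The immune sum rested mainly on Lyz2 (mean 7.59 CPM in Myf5High, 23.0 in Myf5Low), C1qa (5.1 and 21.5) and Cd68 (9.7 and 11.7). Cd68 is named after its values were seen. The other immune genes had means of at most 2.97 CPM. Of the single marker genes, Acta2 of mural cells (log2 ratio -1.73, SE 0.232, edgeR adjusted p 0.000389) and C1qa of macrophages (log2 ratio -2.13, SE 0.394, edgeR adjusted p 0.00771) were lower in Myf5High. All 6 tested immune genes (median log2 ratio -2.06) and all 6 tested glial genes (-0.92) had a log2 ratio below 0. So did 7 of 8 endothelial (-0.37) and 6 of 8 mural genes (-0.7). Above 0 lay 1 endothelial, 2 mural and 4 of 7 tested fibro-adipogenic and tendon genes (0.11). The immune gene Lyz2, named after its values were seen, had a log2 ratio of -1.9 (SE 0.469, edgeR adjusted p 0.0587). With a pool block its edgeR adjusted p was 0.147. Lyz2 was called lower in Myf5High by DESeq2 and in some fits with 1 library left out. The endothelial receptor gene Tek, named after its values were seen, had a log2 ratio of 0.99 (SE 0.244; edgeR adjusted p 0.0577, and 0.0288 with a pool block), and was also called higher in Myf5High by DESeq2 and in 3 of the 8 fits with 1 library left out. Of the stem cell markers 2 of 11 were called higher in Myf5High and 0 lower by edgeR, beside 0.767% and 0.435% of the 11730 genes tested, with a median log2 ratio of 0.30. They were Chrdl2 (log2 ratio 1.33, SE 0.236, edgeR adjusted p 0.00554) and Calcr, the calcitonin receptor (0.89, SE 0.207, edgeR adjusted p 0.0389). Calcr missed the threshold with a pool block and in 7 of the 8 fits with 1 library left out. The part of other cell types in the results on the 4 factors was not tested.

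The make-up of the family changed from one end of the reporter range to the other. In Myf5High cells, nearly all transcripts of the 4 genes were Myf5 and Myod1. In Myf5Low cells, Myog was the most abundant of the 4 in every library, Myod1 was higher than in Myf5High in every pool, and Myf5 was the least abundant of the 3 that were well detected. Myf6 was at the detection limit in both fractions.

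**Figure D1:**
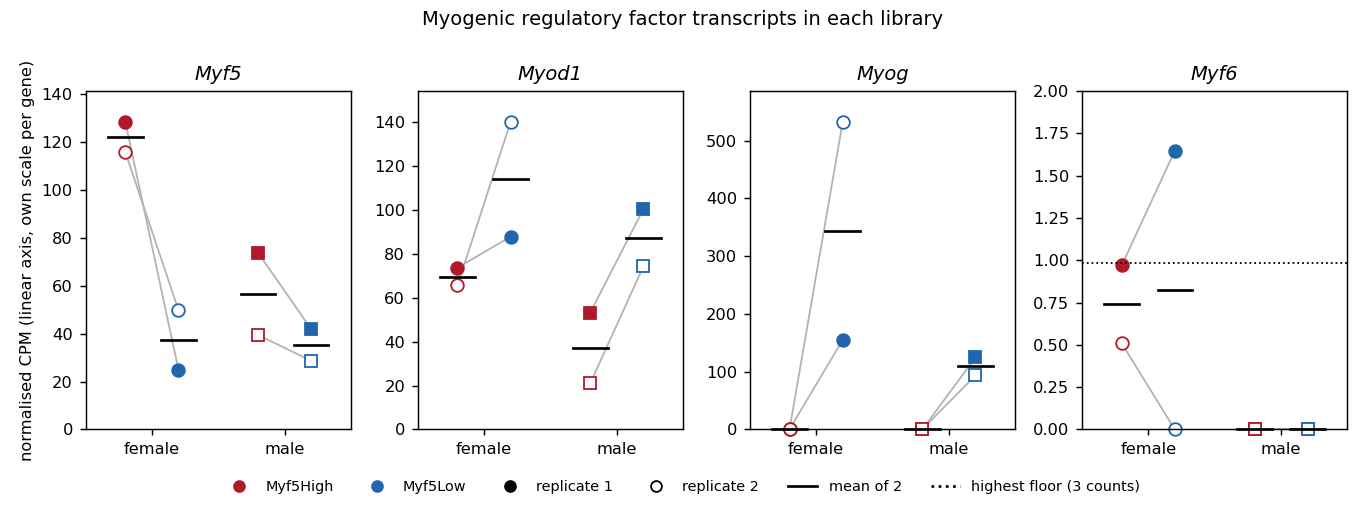
Normalised CPM of each factor in the 8 libraries, on a linear axis with its own scale per gene. Red points are Myf5High, blue points are Myf5Low, circles are females, squares are males, filled points are replicate 1, open points are replicate 2, grey lines join libraries with the same pool number, black bars are means of 2 libraries and the dotted line is the highest floor of 3 counts. Myog lies at or under 1.27 CPM in Myf5High and between 93.7 and 533 CPM in Myf5Low.

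Myf5 (ENSMUSG00000000435) lies on chromosome 10 from 107482908 to 107486134 on the minus strand of GRCm38. Its neighbour Myf6 lies 6718 bases away on the same strand, and no other annotated gene overlaps any of the 4 factors. Because the cells were sorted on a reporter in the Myf5 locus, its transcript serves as a check of the sort and is no independent finding. In females Myf5 had 128 and 116 CPM in the Myf5High libraries of pools 1 and 2, and 25.0 and 49.9 CPM in the Myf5Low libraries. In males it had 73.7 and 39.5 CPM in Myf5High, and 41.9 and 28.7 CPM in Myf5Low. The female fractions did not overlap, whereas male Myf5High replicate 2 lay below male Myf5Low replicate 1.

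The excess of Myf5 transcript in Myf5High was 5.14-fold and 2.32-fold in the female pools, and 1.76-fold and 1.38-fold in the male pools. Over both sexes the log2 ratio of Myf5High to Myf5Low was 1.19 (SE 0.265), higher in 4 of 4 pools, as in 7.51% of genes tested. Its adjusted p was 0.0284 by the quasi-likelihood test of edgeR. In that comparison 1.2% of the 11730 genes tested were called at an adjusted p under 0.05, and 0.767% were called higher in Myf5High. The log2 ratio was 1.70 in females (SE 0.377; edgeR adjusted p 0.0649, and 0.0409 with the pool as a block) and 0.69 in males (SE 0.374; edgeR adjusted p 0.808). The female comparison called 0.332% of genes (0.196% as higher in Myf5High) and the male one 0.171% (0.119% as higher). The interaction, the female minus the male log2 ratio, was 1.02 (SE 0.526; edgeR adjusted p 1.0) and was not called, and ran from 0.60 to 1.59 with 1 library left out. In the both-sex comparison Myf5 missed the threshold without any 1 of 5 libraries, namely female Myf5High replicates 1 and 2, female Myf5Low replicate 1, male Myf5High replicate 1 and male Myf5Low replicate 2. Its log2 ratio was then 1.14, 1.23, 0.98, 0.93 and 1.07, and its edgeR adjusted p 0.103, 0.0566, 0.127, 0.0816 and 0.116.

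The level of Pax7, the other reporter gene and the transcription factor that marks muscle stem cells, did not differ detectably between the fractions. It had 1300 ± 224 CPM (SD, n = 4) in Myf5High against 1274 ± 77.5 CPM (SD, n = 4) in Myf5Low, a log2 ratio of 0.02 (SE 0.17; edgeR adjusted p 0.993). Per kilobase of annotated exon, the level of Myf5 was 0.111 to 0.251 of that of Pax7 in Myf5High libraries and 0.0581 to 0.102 in Myf5Low libraries.

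Myod1 (ENSMUSG00000009471, chromosome 7, 46376474 to 46379099, plus strand) was lower in Myf5High in each pool, a difference whose call depended on the fit. In females Myod1 had 73.7 and 65.7 CPM in Myf5High, and 87.9 and 140 CPM in Myf5Low. In males it had 53.3 and 21.04 CPM in Myf5High, and 100.4 and 74.3 CPM in Myf5Low. All 4 Myf5Low libraries lay above all 4 Myf5High libraries, although the margin between the lowest of the one, 74.3 CPM, and the highest of the other, 73.7 CPM, was narrow. Libraries of the 2 fractions did not overlap in 4.58% of all genes tested.

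The mean level of Myod1 was 53.4 ± 23.2 CPM (SD, n = 4) in Myf5High against 100.7 ± 28.4 CPM (SD, n = 4) in Myf5Low. Its log2 ratio was -0.97 (SE 0.263; edgeR adjusted p 0.103), lower in Myf5High in 4 of 4 pools (8.76% of genes tested were), and it was not called. In the fit blocked by pool the log2 ratio was -1.01 (SE 0.242; edgeR adjusted p 0.0486), just past the threshold, where 0.443% of genes were called lower. Without male Myf5High replicate 1, Myod1 was called in the fit without a block (log2 ratio -1.38, edgeR adjusted p 0.00284), in which 0.602% of genes were called lower. Within a fraction Myod1 was not opposed to Myf5. Male Myf5High replicate 2 was the lowest Myf5High library for both genes, and female Myf5Low replicate 2 the highest Myf5Low library for both. The ratio of Myf5Low to Myf5High ran from 1.19 in female pool 1 through 1.88 in male pool 1 and 2.13 in female pool 2 to 3.53 in male pool 2. The log2 ratio was -0.71 in females (SE 0.368; edgeR adjusted p 0.722) and -1.22 in males (SE 0.376; edgeR adjusted p 0.335), and the interaction of 0.51 (SE 0.522; edgeR adjusted p 1.0) was not called. With 1 library left out the female value ran from -1.02 to -0.35 and the interaction from 0.01 to 1.34. In males alone Myod1 was called without male Myf5High replicate 1 (log2 ratio -2.05, edgeR adjusted p 0.0273), where 0.12% of genes were called lower.

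Myog (ENSMUSG00000026459, chromosome 1, 134289989 to 134292548, plus strand) separated the fractions almost completely. In the Myf5High libraries Myog had 2 and 5 counts in females and 0 and 2 counts in males, which is 0 to 1.27 CPM. The Myf5Low libraries had 565 and 2264 counts in females, or 155 and 533 CPM, and 557 and 392 counts in males, or 125 and 93.7 CPM. Every Myf5Low library was far above every Myf5High library, and female Myf5Low replicate 2 stood well above the other Myf5Low libraries. That library also had the highest immune marker sum, 92.7 CPM, and the highest mural one, 755 CPM, of which Acta2 made up 335 CPM. The mural genes Rgs5 and Myh11, named after their values were seen, were higher in male Myf5Low replicate 2. They had 193 and 128 CPM there, against 134 and 58.3 CPM in female Myf5Low replicate 2.

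Over both sexes the summed Myog counts were 3778 in Myf5Low and 9 in Myf5High, a ratio of 361 after scaling to library size (95% exact interval 190 to 790, for counting error only). The ratio was 240 in female pool 1 (95% exact interval 66.1 to 1990), 418 in female pool 2 (179 to 1290) and 142 in male pool 2 (39.1 to 1180). In male pool 1 the Myf5High library had 0 counts, so Myog was at least 173-fold lower there, against a floor of 3 counts in that library. The fitted log2 ratio was -8.42 (SE 0.503; edgeR adjusted p 2.24e-08), and 0.435% of genes were called lower in Myf5High. By p-value Myog ranked 1 among the 11730 genes tested. It was called within females (edgeR adjusted p 1.04e-06) and within males (2.35e-05), where 0.136% and 0.0512% of genes were called lower. Without female Myf5Low replicate 2 the log2 ratio was -7.85 (edgeR adjusted p 6.09e-09). Without male Myf5High replicate 2 the remaining male Myf5High library has 0 Myog counts, so the fitted value then depends on the prior count. These are values of bulk libraries, in which fewer cells with Myog and less Myog RNA per cell cannot be told apart.

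**Figure D2:**
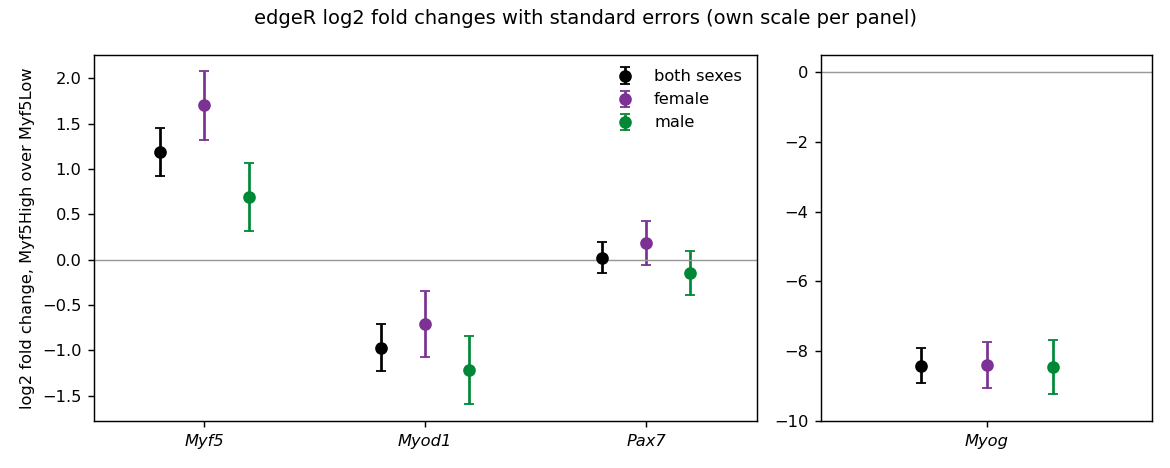
edgeR log2 ratios (log2 fold changes) of Myf5High over Myf5Low, with standard errors as bars, for Myf5, Myod1 and Pax7 on the left and Myog on the right, on separate scales. Black points are both sexes, purple points females and green points males. Myf5 lies above 0 and Myod1 and Myog below 0 in both sexes, and Pax7 lies within 1 standard error of 0 in each of the 3 comparisons.

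The 250 bases before the RefSeq start sites of Myog, of Chrna1 and of Myf5 are shown to set the E-box and other motif content of a gene that was higher in Myf5High beside that of genes that were lower. Myog and Chrna1, which encodes the muscle acetylcholine receptor alpha subunit and is a textbook target of the family, were both lower in Myf5High, and Myf5 was higher. The sequences are RefSeq's on GRCm38.p6, read 5′ to 3′ on the strand of the gene. Capitals mark E-boxes (CANNTG), a loose core of the MEF2 motif (CTANNNNTA) and the MEF3 motif (TCAGGTTT), searched on both strands. N stands for any base. The full MEF2 motif has only A or T at these places, so a marked core need not be a MEF2 motif.
Myog, plus strand, chr1:134289754-134290003: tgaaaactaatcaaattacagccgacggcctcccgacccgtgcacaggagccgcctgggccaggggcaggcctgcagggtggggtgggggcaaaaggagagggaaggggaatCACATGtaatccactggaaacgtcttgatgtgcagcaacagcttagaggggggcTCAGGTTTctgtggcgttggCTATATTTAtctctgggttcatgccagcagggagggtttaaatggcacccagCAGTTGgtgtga
Chrna1, minus strand, chr2:73580339-73580588: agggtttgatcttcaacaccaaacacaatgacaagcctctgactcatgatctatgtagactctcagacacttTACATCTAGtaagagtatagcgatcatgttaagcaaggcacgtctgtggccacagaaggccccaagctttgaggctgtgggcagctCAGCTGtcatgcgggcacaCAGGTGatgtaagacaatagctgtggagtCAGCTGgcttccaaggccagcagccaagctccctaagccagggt
Myf5, minus strand, chr10:107486135-107486384: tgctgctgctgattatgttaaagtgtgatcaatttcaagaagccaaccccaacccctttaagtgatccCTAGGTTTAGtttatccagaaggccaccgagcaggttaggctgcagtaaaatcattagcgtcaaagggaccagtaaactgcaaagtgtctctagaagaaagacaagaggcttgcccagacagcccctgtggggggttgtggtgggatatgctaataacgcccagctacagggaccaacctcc

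The Myog window held 2 E-boxes, starting 138 and 12 bases before the RefSeq start site, a MEF2 core 64 bases before it and a MEF3 motif 84 bases before it. The RefSeq start of Myog, at 134290004, lies 15 bases inside the GENCODE gene given above, so the E-box nearest to it falls within that gene model. For Chrna1 and Myf5 both annotations start at the same base. Of 32536 distinct windows of the same length before annotated starts, 66.2% held an E-box and 31.7% held 2 or more. A MEF2 core was found in 18.9%, a MEF3 motif in 1.17%, and all 3 motifs together in 0.163%. The Chrna1 window held 3 E-boxes, 2 of them CAGCTG, and a MEF2 core 178 bases before the start. Of all windows 12.2% held 3 or more E-boxes and 1.27% held 2 or more copies of CAGCTG. The Myf5 window held 0 E-boxes, and its single marked stretch holds 2 overlapping matches of the loose MEF2 core, 1 on each strand. Of the MEF2 cores marked above, only that of Myog (CTATATTTA) has A or T alone at the N places. Those of Chrna1 and Myf5 have G or C there and do not match the full MEF2 motif. A match of letters is a description of the sequence only. Of 13 genes looked up in the sequence table, 8 had an entry. The windows of the others went no single way. Ryr1 and Chrna4, both called lower in Myf5High, held none of the 3 motifs, the 2 windows of Dok7, also called lower, held 1 and 0 E-boxes, and Des, called higher, held 2. Chn2, called lower, has 4 windows with 0, 4, 2 and 2 E-boxes.

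Myf6 (ENSMUSG00000035923, chromosome 10, 107492853 to 107494737, minus strand) was hardly detected. It had 3 and 2 counts in female Myf5High, 6 and 0 counts in female Myf5Low, and 0 counts in each of the 4 male libraries. The highest value was 1.65 CPM, in female Myf5Low replicate 1, beside a floor of 0.672 to 0.986 CPM for 3 counts. The gene did not pass the filter on low counts, and no difference was detectable at this depth. Only female libraries had any count of it, 11 in all.

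Levels of different genes were compared per kilobase of annotated exon, with lengths of 2083 bases for Myf5, 1861 for Myod1, 1495 for Myog and 1263 for Myf6. On this scale the 4 Myf5High libraries shared a nearly constant composition. Myf5 made up 55.3% to 61.7% of the summed level of the 4 genes, Myod1 36.9% to 44.7% and Myog 0% to 1.43%. The sum itself varied more, from 30.7 CPM per kb in male Myf5High replicate 2 and 64.0 in male replicate 1 to 92.2 and 102 in the female libraries.

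In the Myf5Low libraries Myog made up 53.0% to 78.2% of the summed level, Myod1 16.5% to 34.3% and Myf5 5.26% to 12.8%. The sum was 158 and 116 CPM per kb in the male libraries, 164 in female replicate 1 and 456 in female replicate 2. The ratio of Myod1 to Myf5 was 0.597 to 0.81 in the 4 Myf5High libraries and 2.68 to 3.94 in the 4 Myf5Low libraries. Part of that gap follows from the sort itself, since Myf5 is the sorted gene. The order of levels was therefore Myf5, Myod1, then Myog and Myf6 near the limit in every Myf5High library, and Myog, Myod1, Myf5, Myf6 in every Myf5Low library.

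**Figure D3:**
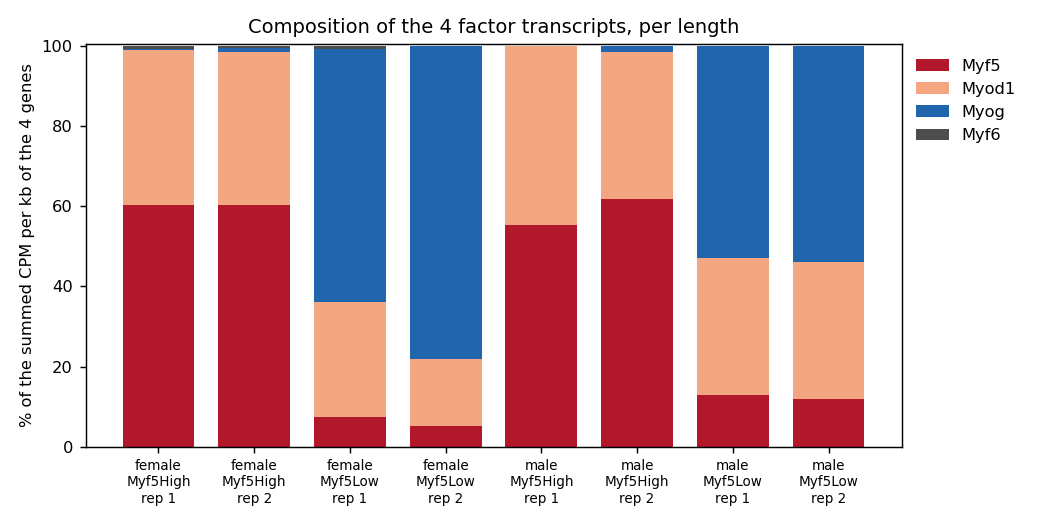
Share of each factor in the summed CPM per kilobase of the 4 genes, in percent, 1 bar per library. Myf5 and Myod1 fill the Myf5High bars, and Myog takes 53.0% to 78.2% of the Myf5Low bars.

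Female and male libraries were compared over both fractions, where 1.65% of genes were called, 0.733% as higher and 0.921% as lower in females. None of the factors was among them. Myf5 was higher in females by a log2 ratio of 0.60 (SE 0.263; edgeR adjusted p 0.311), Myod1 by 0.64 (SE 0.262; edgeR adjusted p 0.269) and Myog by 1.68 (SE 0.705; edgeR adjusted p 0.284). With 1 library left out the difference of Myog ran from 1.11 to 3.34 and that of Myf5 from 0.30 to 0.86, called in 0 of the 8 edgeR fits each. Within Myf5High, both female libraries lay above both male libraries for Myf5 (116 and 128 against 39.5 and 73.7 CPM) and for Myod1 (65.7 and 73.7 against 21.04 and 53.3 CPM), and the difference within that fraction was not tested. Both female libraries lay above both male ones in 21.3% of genes tested. Without male Myf5High replicate 1, Myod1 was called between the sexes (log2 ratio 1.05, edgeR adjusted p 0.0157), in a fit that called 2.63% of genes higher in females. With the counts of each pool summed, 2 pools against 2, Myog was called (log2 ratio 1.61, edgeR adjusted p 0.0483), as were 0.792% of genes, higher in females. Female Myf5Low replicate 2 held 2264 of the 2829 Myog counts of female Myf5Low. Sex and pool cannot be told apart beyond the 2 pools of each sex.

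The list of regulators that act before the factors held 15 genes, among them Pax3, Pax7, Tbx1, Meox1, Meox2 and Lbx1. All 15 passed the filter and 0 of 15 were called by edgeR or DESeq2 (2 at an unadjusted edgeR p under 0.05), with a median log2 ratio of -0.05 beside -0.02 over all genes tested. With 1.2% of all genes called, a count of 0 among 15 is not a result about these regulators. The fold change of Pax3, a paralogue of Pax7 that acts upstream of Myf5, was 0.87 on the log2 scale (SE 0.27; edgeR adjusted p 0.186). Pax3 is named after its values were seen.

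The E proteins Tcf3, Tcf4 and Tcf12, the partners of the factors, had log2 ratios of 0.02, -0.10 and -0.26 (edgeR adjusted p 0.995, 0.944 and 0.804). Tcf4 was the most abundant by CPM, at 1040 ± 110 in Myf5High and 1110 ± 174 in Myf5Low (SD, n = 4 each). Of 13 MEF2 and chromatin co-factors 12 passed the filter, 0 were called by edgeR (2 at an unadjusted p under 0.05) and 1, Smarcd3, by DESeq2, beside 1.2% and 1.66% of all genes by the same tools, with a median log2 ratio of -0.19. Smarcd3, the BAF60c subunit that MyoD uses to recruit chromatin remodelling, had 180 ± 27.4 CPM in Myf5High against 280 ± 47.0 in Myf5Low (SD, n = 4 each; log2 ratio -0.64, SE 0.186, edgeR adjusted p 0.139). Without male Myf5High replicate 2, edgeR called Smarcd3 and Mamstr, a MEF2 coactivator named after its values were seen, lower in Myf5High, beside 0.892% of all genes in that fit. Smarca4, the remodelling ATPase, had a log2 ratio of -0.02 (SE 0.185; edgeR adjusted p 0.994).

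Among 21 genes that restrain the factors, 19 passed the filter, 1 was called higher in Myf5High and 0 lower by edgeR, beside 0.767% and 0.435% of all genes tested, with a median log2 ratio of -0.04. The called gene was Msc (musculin, also MyoR), a helix-loop-helix repressor that competes with MyoD for E-boxes. In Myf5High libraries Msc had 926 and 1060 CPM in females and 1130 and 619 CPM in males. In Myf5Low libraries it had 332 and 473 CPM in females and 243 and 466 CPM in males. All Myf5High libraries lay above all Myf5Low libraries, and the log2 ratio was 1.31 (SE 0.234; edgeR adjusted p 0.0059). Msc was called without any 1 library left out, with a log2 ratio of 1.06 to 1.58 and an edgeR adjusted p of 0.000174 to 0.0294. The Id genes Id1, Id2 and Id3, named after their values were seen, had log2 ratios of -0.35, -0.17 and 0.42 (edgeR adjusted p 0.7, 0.901 and 0.761).

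**Figure D4:**
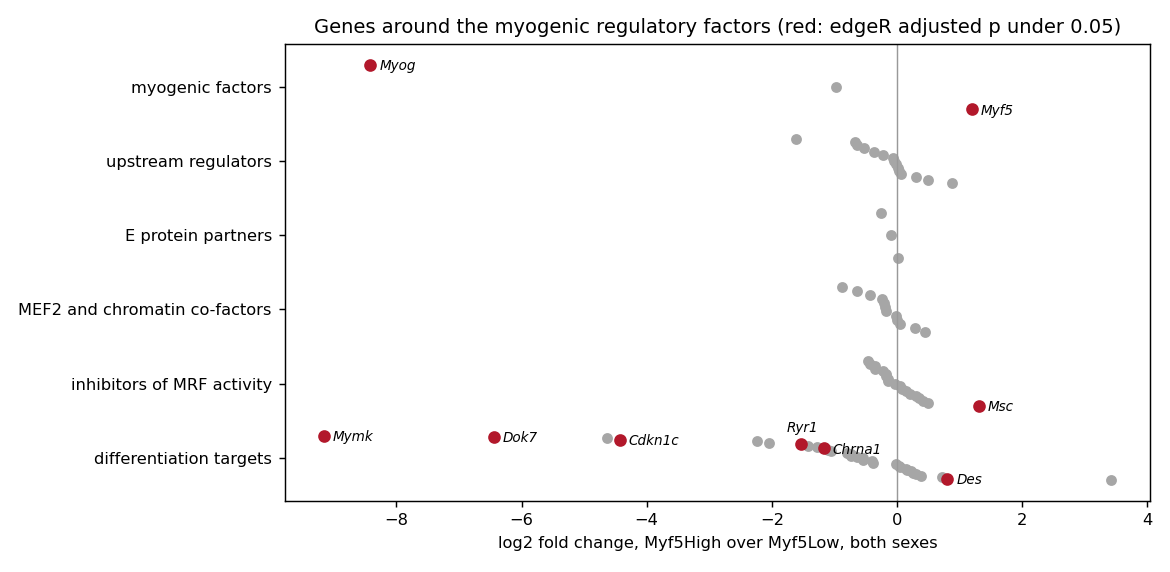
edgeR log2 ratio (log2 fold change) of Myf5High over Myf5Low over both sexes for the tested genes of 6 lists, 1 point per gene, red where the adjusted p is under 0.05. The called genes are Myog and Myf5 among the factors, Msc among the inhibitors, and Mymk, Dok7, Cdkn1c, Ryr1, Chrna1 and Des among the targets. The position of Mymk, with 0 counts in Myf5High, depends on the prior count of the fit.

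Of 38 genes that the factors are known to turn on in differentiation 32 passed the filter, 5 were called lower in Myf5High and 1 higher, beside 0.435% and 0.767% of all genes tested. The median log2 ratio was -0.60, also with Mymk at its bound, beside -0.02 over all genes tested, and ran from -0.72 to -0.33 with 1 library left out, with the value nearest to 0 without male Myf5Low replicate 2. By sex the list's median was -0.87 in females, where 25 of 32 genes lay below 0, and 0.10 in males, where 14 of 32 did. Without female Myf5High replicate 1 the female median was -1.33, and with any 1 library left out it ran from -1.33 to -0.75. Without male Myf5High replicate 1 the male median was -0.42 (25 of 34 below 0), without male Myf5Low replicate 1 it was -0.17, and without male Myf5Low replicate 2 it was 0.41. The difference between the sexes in this list was not tested. Mymk, which encodes the fusion protein myomaker, had 0 counts in every Myf5High library and 4.3 to 67.7 CPM in Myf5Low. It was at least 29.5-fold lower in Myf5High, against a floor of 3 counts per library (edgeR adjusted p 0.000108). Cdkn1c, which encodes the cell cycle inhibitor p57, had 7.89 to 15.1 CPM in Myf5High and 105 to 588 CPM in Myf5Low (log2 ratio -4.43, SE 0.301, edgeR adjusted p 9.68e-08). Dok7, an activator of the synaptic kinase MuSK, had 4 counts in all of Myf5High, all of them in female replicate 1, and 216 counts in Myf5Low. Its fitted log2 ratio was -6.44 (SE 0.974; edgeR adjusted p 0.00144), and without female Myf5High replicate 1, when all Myf5High libraries are at 0, the fitted value of -8.62 depends on the prior count.

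Ryr1, the calcium release channel of skeletal muscle, had 18.7 ± 5.85 CPM in Myf5High against 53.3 ± 15.5 in Myf5Low (SD, n = 4 each; log2 ratio -1.53, SE 0.258, edgeR adjusted p 0.00348). Chrna1 had at most 41.5 CPM in a Myf5High library and 54.7 to 85.8 CPM in the Myf5Low libraries (log2 ratio -1.17, SE 0.239, edgeR adjusted p 0.0151). Chrna1 missed the threshold without any 1 of female Myf5High replicates 1 and 2, female Myf5Low replicate 2 and male Myf5Low replicate 1 (edgeR adjusted p 0.0802, 0.0649, 0.0962 and 0.0706). The fetal receptor subunit gene Chrng and the subunit gene Chrnd, named after their values were seen, had 0 counts in every Myf5High library and 28 and 15 counts in all Myf5Low libraries together, too few to pass the filter. The 1 gene called higher in Myf5High was Des, for the intermediate filament protein desmin, named after its values were seen, with 1620 ± 458 CPM against 925 ± 313 CPM (SD, n = 4 each; log2 ratio 0.80, SE 0.191, edgeR adjusted p 0.0469). Des missed the threshold with RLE scaling (edgeR adjusted p 0.0507) and without any 1 of female Myf5High replicates 1 and 2, female Myf5Low replicate 2, male Myf5High replicate 1 and male Myf5Low replicate 1 (edgeR adjusted p 0.26, 0.0892, 0.242, 0.0505 and 0.193).

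Several contractile genes of the same list were not ordered like Myog, and male Myf5High replicate 1 stood apart in them. They are named after their values were seen. That library also had the highest share of mitochondrial counts, 2.82% beside 0.694% to 1.06% in the other Myf5High libraries and 1.06% to 2.53% in Myf5Low, whose part in the result was not tested. Actc1, an alpha-actin of heart and developing muscle, had 300 CPM in that library, which had 0 counts of Myog, and 0.647 to 2.30 CPM in the other Myf5High libraries. In Myf5Low it had 22.5 and 87.3 CPM in females and 9.86 and 112 CPM in males. Myh3, the embryonic myosin heavy chain, had 175 CPM in male Myf5High replicate 1, 0 to 1.32 CPM in the other Myf5High libraries, 5.49 and 6.12 CPM in female Myf5Low, and 0.448 and 100 CPM in male Myf5Low. Ttn, for the giant sarcomere protein titin, had 627 CPM in male Myf5High replicate 1 and 19.3 to 78.2 CPM in the other Myf5High libraries. In Myf5Low it had 197 and 201 CPM in females and 72.8 and 433 CPM in males.

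Between the fractions Actc1, Myh3 and Ttn were not called (edgeR adjusted p 0.519, 0.861 and 0.488). Without male Myf5High replicate 1, 10 of 34 tested genes of the list were called lower, beside 0.602% of all genes in that fit, and Actc1, Myh3, Ttn, Tnnt2 and Neb were among the 10. This library is singled out after its high values for these genes were seen. Without any 1 of the other libraries 4 to 6 genes of the list were called lower. Without female Myf5Low replicate 2, the library with the most Myog, 4 of 34 were called lower, Cdkn1c, Dok7, Mymk and Ryr1, beside 0.233% of all genes. Ryr1 was not ordered like Myog within Myf5Low, with 33.6 CPM in that library and 51.6 to 71.2 CPM in the other Myf5Low libraries. Of 10 genes of mature fibres, which fibre fragments could bring into a sort, 1 was called lower in Myf5High, beside 0.435% of all genes tested. It was Atp2a1, the fast-fibre calcium pump (log2 ratio -1.23, SE 0.229, edgeR adjusted p 0.00779). It missed the threshold without female Myf5High replicate 2 (edgeR adjusted p 0.0672). Of the 10 genes 6 had a log2 ratio above 0 and 4 below. Actn3, the fast-fibre alpha-actinin, named after its values were seen, had a log2 ratio of 1.02 (SE 0.25; edgeR adjusted p 0.0555). Actn3 was called higher in Myf5High by DESeq2 and in 4 of the 8 edgeR fits with 1 library left out. The summed level of the 10 genes was 238 to 389 CPM in Myf5High and 137 to 297 CPM in Myf5Low, with the lowest sum in female Myf5Low replicate 2.

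The genes with the most similar pattern to each factor were ranked by the root mean square difference of mean-centred log2 CPM over the 8 libraries, among the 9548 genes whose mean reached 5 CPM. With 8 libraries and so many genes close matches are common, and the ranking is a description. For Myog the closest were Mymk (1.33), Cdkn1c (1.71), Dok7 (1.81), the neuronal-type acetylcholine receptor gene Chrna4 (1.96) and Chn2, which encodes a Rac GTPase-activating protein (2.01), beside a median of 3.79 over all genes. In the 4 Myf5Low libraries Mymk, Cdkn1c, Dok7 and Chn2 were highest in female replicate 2, as Myog was, and so was Chrna4 with 23.5 CPM. The ranking used these same libraries, so this follows in part from how the genes were chosen.

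**Figure D5:**
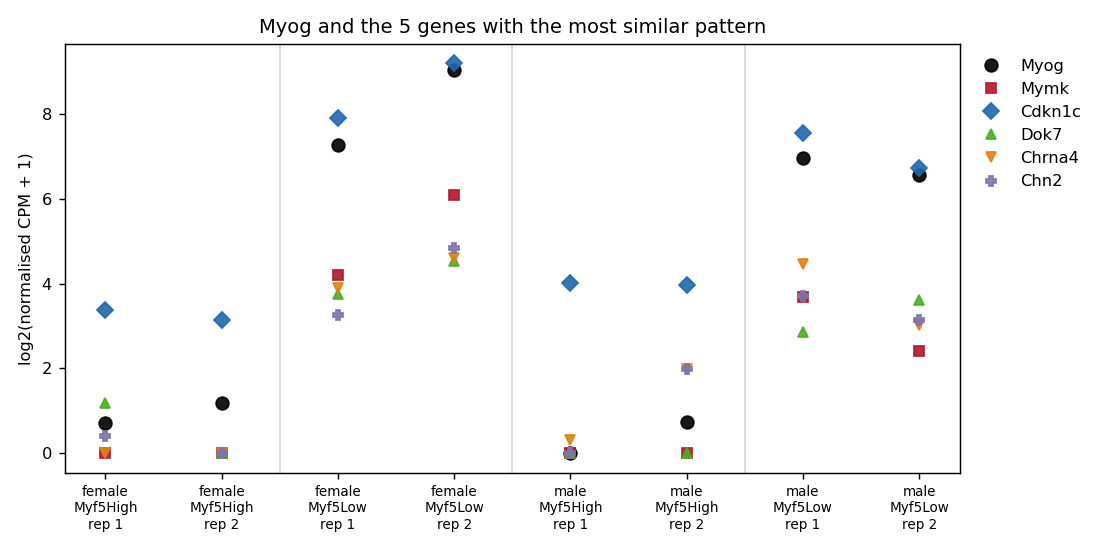
log2(normalised CPM + 1) of Myog and the 5 genes with the smallest root mean square difference to it, in each library. All 6 genes are low in the 4 Myf5High libraries and higher in the 4 Myf5Low libraries, and Cdkn1c keeps 7.89 to 15.1 CPM in Myf5High.

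For Myf5 the closest were the secreted angiopoietin-like factor Angptl2 (0.26), the stem cell marker and BMP antagonist Chrdl2 (0.321), Tmem43 (0.344), Pigm (0.376) and Fbxo4 (0.386), beside a median of 0.909. Angptl2 had 127 and 112 CPM (Myf5High) against 28.8 and 58.8 CPM (Myf5Low) in females, and 67.0 and 46.7 CPM against 34.9 and 44.4 CPM in males. Chrdl2 was called higher in Myf5High (log2 ratio 1.33, edgeR adjusted p 0.00554), and Angptl2 was not (0.98, edgeR adjusted p 0.0619). For Myod1 the closest were the mitochondrial enzyme gene Acat1 (0.181), Rcc1, the exchange factor of the GTPase Ran (0.233), Wdr45 (0.236), the mitochondrial gene mt-Nd6 (0.288) and Ercc8 (0.294), beside a median of 0.848. None of these 5 was called between the fractions, with edgeR adjusted p-values of 0.353, 0.386, 0.592, 0.339 and 0.75.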

How the data were processed

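Polyadenylated RNA was sequenced as single reads, per the labels. What the authors deposited are raw read counts, whole numbers per Ensembl gene, made with HTSeq on GRCm38 per the submitters' processing notes. The aligner, annotation release and strand setting are not given in the sources used here. HTSeq's rows of unassigned reads stayed out of library sizes and tests. Of 27554 genes 27518 matched GENCODE M21, which gave symbols, lengths and coordinates.

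The counts went through edgeR 4.0.16 in R 4.3.3. filterByExpr (minimum count 10, minimum total 15) kept 11730 genes, libraries were scaled by TMM, and glmQLFit fitted all 8 libraries together with 1 mean for each group. Contrasts were tested with glmQLFTest, two-sided, and p-values adjusted by Benjamini-Hochberg over all genes tested, with a threshold of 0.05. DESeq2 1.42.0 was an alternative. The fits were tested on simulated data of 11730 genes for Myf5High against Myf5Low. CPM are scaled by TMM, per-length values divide CPM by union exon length, and the likeness of patterns used log2 CPM with a prior count of 2. Intervals of count ratios are exact (conditional binomial), and they and the floors cover counting error only.

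Groups came from titles. Replicates were not identical and differed beyond sampling noise in each group (chi-square per degree of freedom 8.42 to 25.8). Deviations from group means of libraries with the same pool number correlated across genes at 0.0275 (females) and -0.000273 (males), so the pairing rests on the pool labels only. The members, gene lists and tests were chosen with earlier results of these data known. Beside the factors, genes were named if called (up to 5 per list) or else as the 2 of highest mean CPM, and as the 5 nearest patterns. Tcf3 is added to complete its list, and other genes are marked where named after their values were seen. Some genes of the lists are not reported here. Other settings were RLE scaling, no filter, DESeq2, Gm42418 (an rRNA-like transcript) left out, the pool as a block, fits of 1 sex, summed pools, and each library left out in turn.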

Additional observations from a re-analysis of the deposited data

Results flagged for a closer look

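Of 51 sets of 4 libraries (a gene in 1 fraction) 7 had a library far from the other 3 by Dixon's gap test, which flags about 1 set in 20 by chance. Myog in female Myf5Low replicate 2 had 533 CPM, beside 93.7 to 155 CPM in the other Myf5Low libraries. Acta2, a smooth muscle actin, had 335 CPM in the same library, beside 139 to 153 CPM. Male Myf5High replicate 2 was apart in 3 genes. It had 257 CPM of Chrdl2 beside 568 to 625 CPM, 229 CPM of Gsn (gelsolin) beside 515 to 560 CPM, and 220 CPM of Smarcd3 beside 163 to 172 CPM. Tcf12 had 149 CPM in male Myf5High replicate 1, beside 91.2 to 93.4 CPM. S100b, a glial gene, had 26.8 CPM in male Myf5Low replicate 2, beside 16.4 to 17.3 CPM. Pax7 was higher in Myf5High in both female pools (log2 ratio 0.18) and lower in both male pools (-0.15). The interaction of 0.33 was not called (edgeR adjusted p 1.0).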

How the results depend on the processing

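The fall of Myog was called in each of the 5 other settings and the 8 fits with 1 library left out (log2 ratio -10.07 to -7.85, the first with only a library of 0 counts left in male Myf5High), and within each sex as well (-9.03 to -7.25 in females, -11.76 to -7.31 in males). Myf5 over both sexes kept its call in the other settings and lost it in 5 of the 8 fits (0.93 to 1.48). In females Myf5 passed without a filter (1.69), by DESeq2 (1.70), with the pool block (1.77), in the fit of females only (1.69) and without any 1 male library (1.69 to 1.70), but without any 1 female library it missed the threshold (1.28 to 2.28, edgeR adjusted p 0.0858 to 0.386). In males Myf5 ran from 0.16 to 1.06 and was not called. Myod1 passed without a filter (-0.98), by DESeq2 (-0.97), with the pool block (-1.01) and in 1 of the 8 fits (-1.38 to -0.71). In males it passed without a filter (-1.23) and in 1 fit (-2.05 to -0.72). Between the sexes Myod1 ran from 0.39 to 1.05, and Myog passed without a filter (1.67) and with summed pools (1.61). The interaction of Myog, which rests on 9 counts in Myf5High, ran from -1.08 to 3.37.

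The genes called over both sexes numbered 141, against 291 without a filter, 218 by DESeq2 and 82 to 243 with 1 library left out (82 without female Myf5Low replicate 2, 85 without female Myf5High replicate 1, 243 without male Myf5High replicate 2). In females 39 became 167, 105, and 77 in the fit of females only (9 to 117). In males 20 became 111, 74, and 2 in the fit of males only (8 to 74). The interaction called 0 genes by edgeR (533 at an unadjusted p under 0.05), 14 without a filter, 2 by DESeq2 and 0 to 8 with 1 library left out. Between the sexes 194 became 477, 351, and 82 to 558 with 1 library left out. Small differences changed sign with 1 library left out, in Pax7 (-0.07 to 0.09), Smarca4 (-0.12 to 0.09) and Gsn (-0.18 to 0.44). The causes were not tested. With the pool block Calcr lost its call (0.88, edgeR adjusted p 0.0711), as it did in 7 of the 8 fits with 1 library left out (edgeR adjusted p 0.0712 to 0.191), and among the named genes and factors the block changed no other call than those of Calcr, Tek, Myod1 and Myf5 in females. Each fit with 1 library left out assumes that the lone library of its group varies like the others. Myf6, with 11 counts, was tested by edgeR only without a filter and was not called over both sexes (edgeR adjusted p 1.0) or between the sexes (0.573).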
